A study of Mus musculus with 9 samples.

Results

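The myosin heavy chains are the motor proteins of muscle and of the contractile cytoskeleton. The 10 genes described here are Myh1, Myh2, Myh3, Myh4, Myh6, Myh7, Myh7b, Myh8, Myh9 and Myh10, found by symbol in a table of 45706 mouse genes, and all 10 passed the filter on low values that left 17291 genes for testing. The first 8 encode sarcomeric chains, which build the thick filaments of striated muscle, and Myh9 and Myh10 encode nonmuscle chains IIA and IIB. They were measured by RNA sequencing in satellite cells, the stem cells of skeletal muscle, taken from wild-type C57Bl6 mice of 12 to 20 weeks. The 3 stages were cells freshly isolated from muscle, cells kept proliferating for at least 3 days (FGF-2 at 2.5 ng/ml, fetal calf serum at 20%), and myotubes after 6 further days in 2% horse serum, which the stage label calls differentiating. Each stage had 3 libraries from different animals. No stage carried a mutation or a drug, and cultured cells had been through a serum and growth factor medium that the freshly isolated cells had not.

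A class II myosin joins a pair of heavy chains, each with a motor head that pulls on actin and a long coiled tail, to light chains bound at the neck. In developing limb muscle Myh3 (embryonic) and Myh8 (perinatal) come before the adult fast chains, Myh2 (type IIa), Myh1 (type IIx) and Myh4 (type IIb), while the slow chain Myh7 is already made beside Myh3 in the first fibres. Regenerating adult fibres and cultured myotubes are known to use the embryonic and perinatal genes again. Myh6 is the alpha chain of the heart, Myh7b is an ancient chain found at low level in heart and some muscles, and Myh9 and Myh10 act in adhesion, migration and the cleavage of dividing cells.

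The values are the authors' read counts per gene, scaled between libraries and rounded, and are called normalized counts. They summed to 20.1 to 26.2 M in freshly isolated, 17.8 to 18.2 M in proliferating and 19.5 to 20.8 M in myotube libraries. The spacing of low values gave an estimated 12.0 to 19.3, 20.4 to 24.3 and 22.0 to 22.8 M reads in the same stages, and 1 read in freshly isolated library 1 was worth 2.18 normalized units, against 0.747 to 1.05 in the other 8 libraries. Freshly isolated library 1 lay above both others of its stage in 39.7% of all genes tested and below both in 41.9%. Proliferating library 1 lay below both others of its stage in 9 of the 10 genes, as did 35.3% of all genes tested, and it also had the lowest Myog, the transcription factor of early differentiation (2179, against 9530 and 8749 in libraries 2 and 3). Myotube library 2 lay below both others of its stage in all 8 sarcomeric genes, as did 38.1% of all genes tested. The steps were smaller there (Myh3 296158, against 323523 and 335321) than in proliferating library 1 (Myh3 3055, against 23038 and 15385). Values without freshly isolated library 1 or proliferating library 1 are given where they move a result.

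Of the 10 genes, 5 sarcomeric ones lie close together on the plus strand of chromosome 11 (GRCm38), in the order Myh3 (67078300 to 67102291), Myh2 (67171027 to 67197517), Myh1 (67200052 to 67224575), Myh4 (67238029 to 67260446) and Myh8 (67277124 to 67308634). Each transcript is long, with 39 to 41 exons in the longest annotated form of these 5 genes. Myh10 lies farther along the same chromosome (68691559 to 68816632). Myh6 (54941921 to 54966927) and Myh7 (54970684 to 54994626) are neighbours on the minus strand of chromosome 14, Myh7b is on chromosome 2 (155611212 to 155634307) and Myh9 on chromosome 15 (77760587 to 77842175). The 250 bases before the transcript starts of the 5 clustered genes are shown because all 5 rose in myotubes against proliferating cells. They are RefSeq promoters on GRCm38.p6, all on the plus strand, at chr11:67078050-67078299 (Myh3), chr11:67276874-67277123 (Myh8), chr11:67199852-67200101 (Myh1), chr11:67170777-67171026 (Myh2) and chr11:67237562-67237811 (Myh4). The RefSeq starts of Myh1 and Myh4 differ from the gene starts given above. Capitals mark TATAAA and the longest run of letters shared by Myh8, Myh1, Myh2 and Myh4.
Myh3: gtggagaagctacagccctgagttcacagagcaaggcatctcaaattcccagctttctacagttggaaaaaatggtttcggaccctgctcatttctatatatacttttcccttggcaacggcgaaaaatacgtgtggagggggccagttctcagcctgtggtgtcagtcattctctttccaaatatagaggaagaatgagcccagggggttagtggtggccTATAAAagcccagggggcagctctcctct
Myh8: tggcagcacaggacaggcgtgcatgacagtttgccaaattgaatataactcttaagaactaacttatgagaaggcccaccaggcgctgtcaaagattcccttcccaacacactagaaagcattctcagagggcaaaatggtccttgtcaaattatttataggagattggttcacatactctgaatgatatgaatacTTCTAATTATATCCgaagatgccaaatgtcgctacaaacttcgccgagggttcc
Myh1: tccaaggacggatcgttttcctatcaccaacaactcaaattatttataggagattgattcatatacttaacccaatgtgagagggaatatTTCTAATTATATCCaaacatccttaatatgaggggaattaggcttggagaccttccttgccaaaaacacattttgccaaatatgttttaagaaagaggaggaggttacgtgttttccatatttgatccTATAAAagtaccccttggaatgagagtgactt
Myh2: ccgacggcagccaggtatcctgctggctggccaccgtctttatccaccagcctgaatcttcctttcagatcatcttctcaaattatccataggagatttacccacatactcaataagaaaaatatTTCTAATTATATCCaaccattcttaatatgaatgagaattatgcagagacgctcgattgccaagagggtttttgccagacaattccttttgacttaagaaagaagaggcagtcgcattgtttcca
Myh4: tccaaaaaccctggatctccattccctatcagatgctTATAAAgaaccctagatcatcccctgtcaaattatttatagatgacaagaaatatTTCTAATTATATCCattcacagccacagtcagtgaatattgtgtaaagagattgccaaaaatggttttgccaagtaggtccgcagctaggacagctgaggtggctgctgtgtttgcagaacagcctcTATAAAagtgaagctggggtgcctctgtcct

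The shared run, TTCTAATTATATCC, has 14 bases and began at -160 in Myh1, -158 in Myh4, -125 in Myh2 and -54 in Myh8, counted from the transcript start. It was chosen after the sequences were seen, and these 4 windows were the 4 that held it among 32851 RefSeq promoters of the same length (0.0122%). Pairs among the 4 genes shared runs of 14 to 22 bases, and Myh3 shared at most 11 bases with any of them. TATAAA on the sense strand was in the windows of Myh1, Myh3 and Myh4, against 7.59% of all promoters, and a MEF2 consensus on either strand in those of Myh1, Myh4 and Myh8, against 2.92%. The E-box CANNTG, read on both strands, was in all windows shown but those of Myh1 and Myh2, and in 66.2% of all promoters. A CArG box was in the window of Myh4 (1.47% of all) and the M-CAT core CATTCC in those of Myh1 and Myh4 (12.6%). None of these matches overlapped the shared run.

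**Figure D1:**
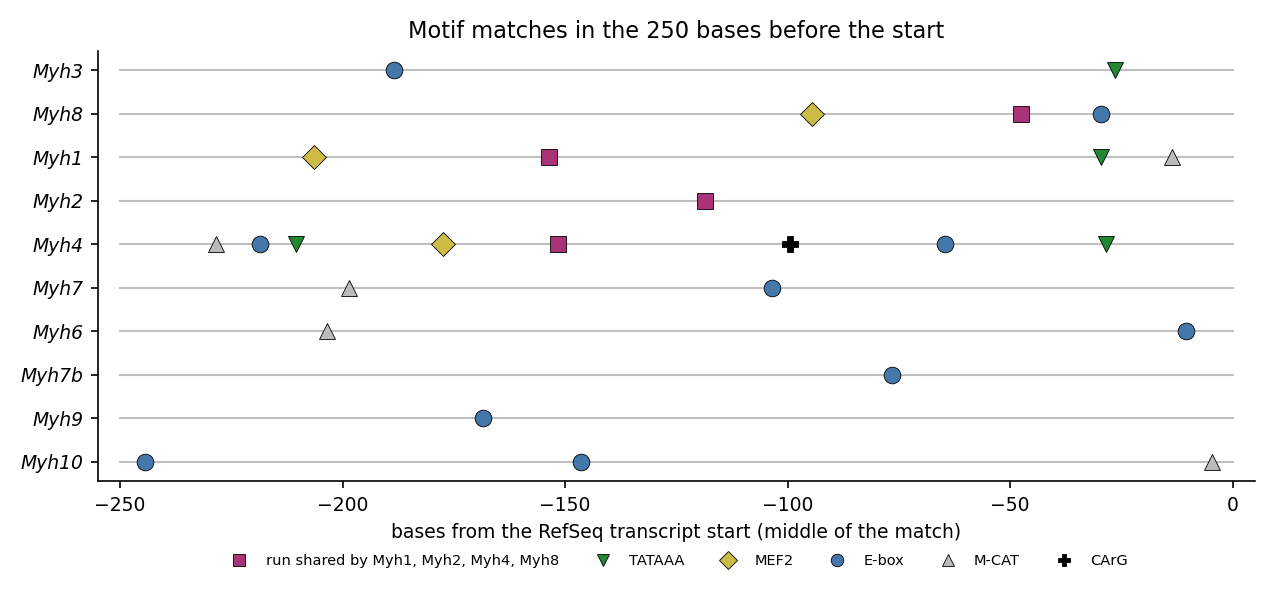
Positions of motif matches in the 250 bases before the RefSeq transcript start of each of the 10 genes (x axis, bases from the start, at the middle of each match; 1 line per gene), with the first RefSeq entry of Myh7. The 14-base run has its first base at -160 in Myh1, -158 in Myh4, -125 in Myh2 and -54 in Myh8 and in no other line.

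Nonmuscle genes made up nearly all myosin heavy chain RNA in freshly isolated cells and a small part of it in myotubes. With counts divided by exon length, so that genes can be compared, Myh9 and Myh10 together made up 97.7%, 95.9% and 93.4% of the 10 genes in the freshly isolated libraries, 84.3%, 45.4% and 52.3% in the proliferating ones and 2.10%, 2.43% and 1.71% in myotubes. Myh3 alone held 0.573%, 0.288% and 0.337% of the same sum in freshly isolated cells, 14.7%, 51.2% and 45.0% in proliferating cells and 71.1%, 71.5% and 69.9% in myotubes. No stage overlapped another in either share, but with 3 libraries against 3 an exact permutation test cannot go below p = 0.1, the value it gave for each pair of stages. The proliferating libraries spread widely, since library 1 kept a far larger nonmuscle share than libraries 2 and 3. The mean of 60.7% was 48.8% without library 1. Over all 3 libraries it was 71.0% with the longest transcript as length and 74.8% with no division by length. In these bulk samples fewer cells of a type and less RNA per cell cannot be told apart.

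The family took a larger part of the counts at each later stage. All 10 genes took 0.0796% to 0.114% of the normalized counts in freshly isolated libraries, 0.224% to 0.372% in proliferating ones and 2.33% to 2.53% in myotubes. The 8 sarcomeric genes summed to 357 to 694, 3277 to 24780 and 432589 to 507951 normalized counts in the same order of stages, while Myh9 and Myh10 summed to 15864 to 29455, 36610 to 42683 and 17055 to 20798. The sarcomeric sum therefore passed the nonmuscle sum in myotubes and in no earlier library, whereas per kb of exon it also passed it in proliferating library 2 (45.4% nonmuscle). That crossing depends on the length used, and the mean nonmuscle share in proliferating cells was 71.0% with the longest transcript (60.7% with all exons).

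**Figure D2:**
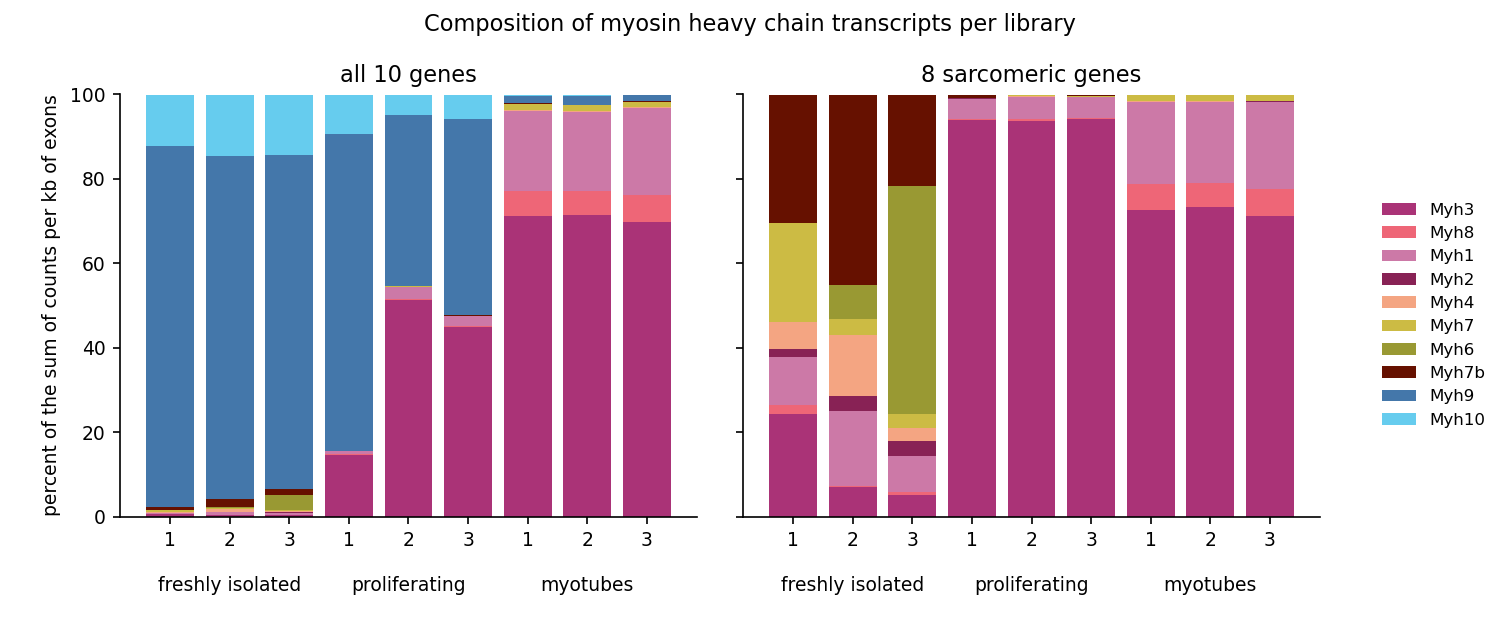
Composition of the myosin heavy chain transcripts in each library (x axis, libraries 1 to 3 of the 3 stages; y axis, percent of summed counts per kb of exon), over all 10 genes on the left and over the 8 sarcomeric genes on the right. Myh9 and Myh10 (blue) fill 93.4% to 97.7% of the freshly isolated bars and 1.71% to 2.43% of the myotube bars, and Myh3 fills 93.7% to 94.2% of the sarcomeric bars of proliferating cells.

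Per kb of exon, the order of levels in freshly isolated cells was Myh9 (1450 ± 517, SD, n = 3), Myh10 (236 ± 52.4) and then 8 sarcomeric genes between 0.623 (Myh8) and 21.4 (Myh7b), of which each overlapped its neighbour in the order. In proliferating cells Myh9 (2740 ± 242) and Myh3 (2280 ± 1660) overlapped at the top, followed by Myh10 (335 ± 18.3) and Myh1 (123 ± 94.3). That overlap depends on the division by length, since in normalized counts Myh9 (33233 to 38957) lay above Myh3 (3055 to 23038). From Myh8 (1.95 to 19.6) through Myh7, Myh7b, Myh4 and Myh2, neighbours overlapped again, and Myh6 was listed at 0. Myotubes had an order without overlap between neighbours. Myh3 (52600 ± 3320) led, followed by Myh1 (14400 ± 1740), Myh8 (4480 ± 558), Myh9 (1290 ± 128), Myh7 (1040 ± 71.1), Myh10 (236 ± 27.4), Myh4 (151 ± 25.3), Myh7b (50.8 ± 5.19), Myh2 (33.1 ± 5.08) and Myh6 (6.34 ± 1.35). The same order held in myotubes with the length of the longest transcript in place of all exons.

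In myotubes against proliferating cells all 8 sarcomeric genes rose and both nonmuscle genes fell (limma on log2(value + 1), Benjamini-Hochberg adjusted p below 0.05 over 17291 genes). In that comparison 54.1% of all genes tested were called, 28.6% higher and 25.5% lower, and the median log2 change was 5.50 over the 10 genes and 0.04 over all genes. In proliferating against freshly isolated cells 5 of the 10 rose (37.6% of all genes) and 4 fell (35.7% of all genes), 9 of 10 called where 73.3% of all genes were. Those that rose were Myh1, Myh3, Myh8, Myh9 and Myh10, and those that fell were Myh2, Myh4, Myh6 and Myh7b. The number that fell was 2 with TMM scaling, library totals or no filter, and 1 with no mean-variance trend or the 2 stages alone, and the call of Myh7b held in every alternative. The median log2 changes in this comparison were 0.28 over the family and 0.07 over all genes. In myotubes against freshly isolated cells 7 rose (40.2% of all genes), none fell (37.3%), and Myh6, Myh9 and Myh10 were not called, so that 7 of 10 were called where 77.6% of all genes were. The libraries of the 2 stages did not overlap for 10, 6 and 7 of the genes in the 3 comparisons, against 70.9%, 74.0% and 78.7% of all genes tested. The medians were 4.50 over the family and 0.10 over all genes. The 3 comparisons share libraries, so their calls are not independent. Scaling by library totals moved the median of all genes to 0.35 in proliferating against freshly isolated cells, to 0.22 in myotubes against freshly isolated cells and to -0.12 in myotubes against proliferating cells. The calls over all genes were then 7370 higher and 5041 lower in proliferating against freshly isolated cells, in place of 6507 and 6172, and 3918 higher and 4990 lower in myotubes against proliferating cells, in place of 4951 and 4402. Without freshly isolated library 1 and proliferating library 1 together, the family counts were 8 higher and 2 lower, 6 and 3, and 7 and 0 in the 3 comparisons.

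**Figure D3:**
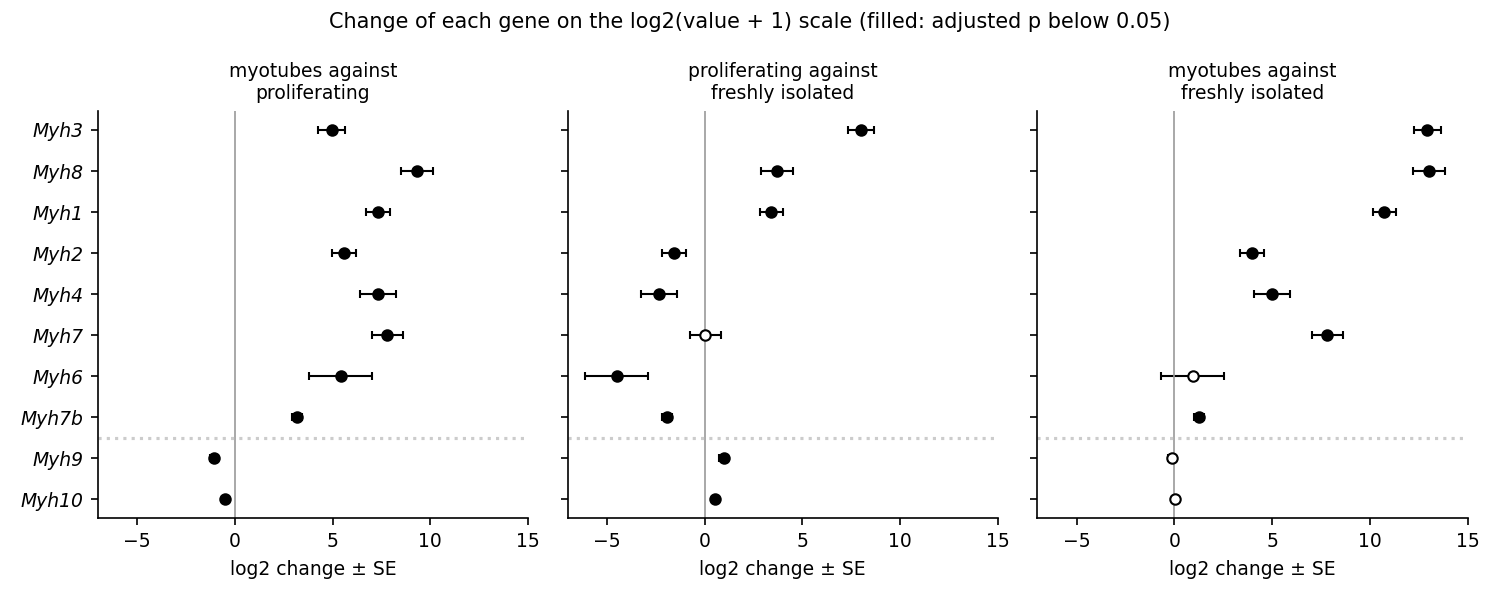
Log2 change of each gene ± SE on the log2(value + 1) scale (x axis) in the 3 comparisons, 3 libraries per stage, with filled points where the limma adjusted p was below 0.05. All 8 sarcomeric genes lie right of 0 and both nonmuscle genes left of it in myotubes against proliferating cells.

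The embryonic gene Myh3 had the largest rise of the 10 genes in proliferating against freshly isolated cells. It had 83, 23 and 32 normalized counts in the freshly isolated libraries, 3055, 23038 and 15385 in the proliferating ones and 323523, 296158 and 335321 in myotubes. No stage overlapped another, and proliferating library 1 lay far under libraries 2 and 3. The log2 change was 7.99 ± 0.67 in proliferating against freshly isolated cells (adjusted p = 1.99e-06) and 4.95 ± 0.67 in myotubes against proliferating cells (adjusted p = 0.000134). Without proliferating library 1 these became 8.86 and 4.08, and without proliferating library 2 the first was 7.40, all still called. In myotubes against freshly isolated cells the log2 change was 12.94 (adjusted p = 4.98e-08). Myh3 transcripts were the bulk of sarcomeric myosin RNA before the change to low serum. They made up 93.9%, 93.7% and 94.2% of the sarcomeric sum per kb in the proliferating libraries, a share that varied far less between libraries than the Myh3 level itself. In myotubes the share was 72.7%, 73.3% and 71.1%, below every proliferating library.

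Myh8, the perinatal chain, stayed low until the myotube stage. Its counts were 13, 1 and 8 in freshly isolated, 23, 231 and 99 in proliferating and 53732, 45773 and 58801 in myotube libraries. The stages did not overlap. The log2 change was 9.32 ± 0.82 in myotubes against proliferating cells (adjusted p = 8.85e-06), the largest of the 10 genes in that comparison, and 3.70 ± 0.82 in proliferating against freshly isolated cells (adjusted p = 0.00214). The first became 8.43 without proliferating library 1 and 10.07 without library 2, and the second 4.59 and 2.96, and 2.87 without freshly isolated library 2. In myotubes against freshly isolated cells it was 13.02 (adjusted p = 2.06e-07), and 12.19 without freshly isolated library 2. Relative to Myh3, Myh8 stood at 8.06, 2.24 and 12.9 per 100 in freshly isolated libraries, at 0.387, 0.516 and 0.331 per 100 in proliferating ones and at 8.55, 7.95 and 9.02 per 100 in myotubes, all on counts per kb of exon. The freshly isolated ratios rest on 1 to 13 counts of Myh8 and overlap those of myotubes (exact permutation p = 0.8). Myh8 has many annotated exon bases outside its longest transcript (11772 in all, 6149 in that transcript), and with the longest transcript the mean in myotubes was 16.2 per 100 of Myh3.

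**Figure D4:**
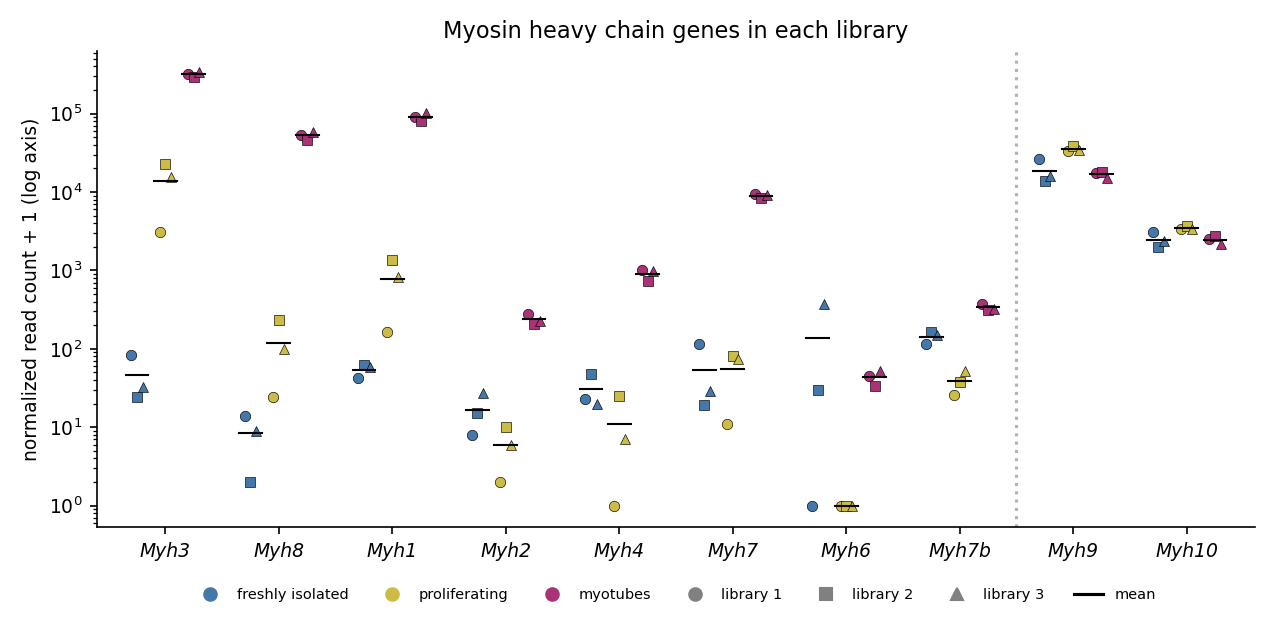
Normalized read count + 1 of each gene in each of the 9 libraries (y axis, log scale; x axis, genes, with the 8 sarcomeric ones left of the dotted line), with points for libraries 1 to 3 and a bar for the stage mean. Myh3 spans from 23 counts in a freshly isolated library to 335321 in a myotube library, while Myh9 stays between 13871 and 38957.

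All 3 adult fast chains rose in myotubes, and Myh1 was by far the most abundant of them. Myh1 (type IIx) had 41, 62 and 57 counts in freshly isolated, 163, 1360 and 818 in proliferating and 89954, 81073 and 103059 in myotube libraries, again without overlap between stages. It rose by a log2 change of 7.32 ± 0.60 in myotubes against proliferating cells (adjusted p = 6.01e-06) and of 3.41 ± 0.60 in proliferating against freshly isolated cells (adjusted p = 0.000482). The values were 6.43 and 4.30 without proliferating library 1 and 7.95 and 2.78 without library 2. In myotubes against freshly isolated cells Myh1 was higher by 10.73 on the log2 scale (adjusted p = 9.08e-08). Myh1 was the second most abundant chain of myotubes, at 18.9%, 18.7% and 20.5% of the family sum per kb. Its ratio to Myh3 was close to constant within each cultured stage, at 5.09, 5.63 and 5.07 per 100 in proliferating libraries and 26.5, 26.1 and 29.3 per 100 in myotubes (47.1, 257 and 170 in freshly isolated libraries, where both genes had at most 83 counts), although Myh3 itself differed severalfold between proliferating libraries.

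Myh2, the type IIa chain, had 7, 14 and 26 counts in freshly isolated, 1, 9 and 5 in proliferating and 276, 205 and 228 in myotube libraries. Myh4, the type IIb chain of the fastest fibres, had 22, 47 and 19, then 0, 24 and 6, then 1001, 734 and 994. Both were above every proliferating library in myotubes, with log2 changes of 5.58 ± 0.61 for Myh2 (adjusted p = 3.50e-05) and 7.33 ± 0.92 for Myh4 (adjusted p = 8.70e-05). Without proliferating library 1 these were 4.93 and 6.09, and without library 2 that of Myh4 was 8.41. In myotubes against freshly isolated cells the log2 changes were 3.99 for Myh2 (adjusted p = 0.000158) and 5.01 for Myh4 (adjusted p = 0.000575). In proliferating against freshly isolated cells the libraries of the 2 stages overlapped for both genes. The calls there (Myh2 log2 change -1.58 ± 0.61, adjusted p = 0.0383; Myh4 -2.33 ± 0.92, adjusted p = 0.0425) rest on 0 to 47 counts. Without proliferating library 1 they ended, at -0.93 (adjusted p = 0.137) for Myh2 and -1.08 (adjusted p = 0.108) for Myh4, while without library 2 Myh4 was at -3.41 (adjusted p = 0.00283). Leaving out freshly isolated library 2 or 3, proliferating library 3 or any myotube library also ended both calls (adjusted p between 0.0549 and 0.136), as did TMM scaling (0.0576 for Myh2 and 0.0543 for Myh4) and scaling by library totals (0.0886 and 0.0711). Per 100 of Myh1 and per kb, Myh2 stood at 15.2, 20.1 and 40.6 in freshly isolated libraries, 0.546, 0.589 and 0.544 in proliferating ones and 0.273, 0.225 and 0.197 in myotubes, lower at each later stage without overlap. The 4 genes with the shared promoter run rose in myotubes against proliferating cells, but so did all 8 sarcomeric genes (28.6% of all genes tested). The windows were chosen for that rise, so no link to the run can be read from it.

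Myh7, the slow chain that is also the beta chain of the heart, turned on late. It had 113, 18 and 28 counts in freshly isolated, 10, 81 and 73 in proliferating and 9476, 8298 and 9177 in myotube libraries. The first 2 stages overlapped and were not told apart (proliferating against freshly isolated, log2 change 0.03 ± 0.79, adjusted p = 0.976). Without freshly isolated library 1 and proliferating library 1 together, Myh7 was higher in proliferating cells (81 and 73 counts, against 18 and 28 in freshly isolated cells, log2 change 1.73 ± 0.18, adjusted p = 4.91e-06), and without either alone it was at 0.79 and 0.97 and not called. In myotubes against proliferating cells it rose by 7.79 ± 0.79 (adjusted p = 2.03e-05), or 6.85 without proliferating library 1, and against freshly isolated cells by 7.82 ± 0.79 (adjusted p = 6.58e-06), or 8.58 without freshly isolated library 1. Myotubes carried 2.06, 1.97 and 1.92 Myh7 per 100 Myh3 and per kb, against 0.23, 0.247 and 0.334 in proliferating libraries and 95.7, 55.0 and 61.5 in freshly isolated libraries, where both genes had at most 113 counts.

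**Figure D5:**
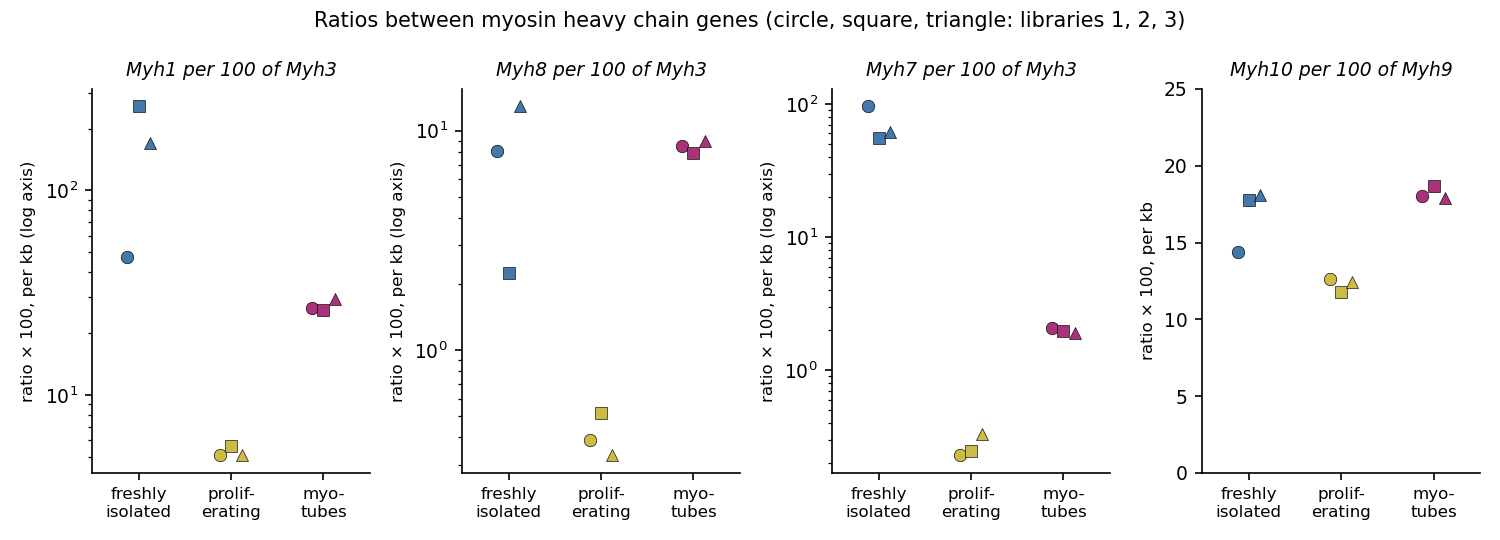
Ratios of counts per kb of exon in each library (y axis, ratio × 100, log axis for the 3 ratios to Myh3 and linear from 0 for Myh10 to Myh9; x axis, the 3 stages; symbols, libraries 1 to 3). Within proliferating cells the ratio of Myh1 to Myh3 lies between 5.07 and 5.63 per 100 and within myotubes between 26.1 and 29.3 per 100.

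Myh6, the alpha chain of the heart, had the most uneven pattern. It had 0, 29 and 375 counts in the freshly isolated libraries, was listed at 0 in all 3 proliferating libraries and had 44, 33 and 51 in myotubes. A single library, freshly isolated library 3, held most of it, and there it made up 54.0% of the sarcomeric sum per kb, against 7.93% in library 2 and none in library 1. In proliferating against freshly isolated cells it was called lower although the stages overlapped (adjusted p = 0.0279), and the call ended without freshly isolated library 3 (adjusted p = 0.0887), without freshly isolated library 2 (0.0726) and without any proliferating library (0.0615 to 0.064), whereas without freshly isolated library 1 the adjusted p was 1.74e-05. The rise in myotubes against proliferating cells (adjusted p = 0.016) ended without myotube library 3 (adjusted p = 0.0505) and with a pseudocount of 10 (adjusted p = 0.0554), and no fold is given because the proliferating libraries are listed at 0. Myotubes against freshly isolated cells were not called (log2 change 0.94 ± 1.61, adjusted p = 0.61), with a value of 2.97 (adjusted p = 0.0438) without freshly isolated library 3 and -1.30 (adjusted p = 0.158) without freshly isolated library 1.

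Other heart genes were also high in freshly isolated library 3. Myl2, the ventricular regulatory light chain, had 0, 12 and 196 counts in the freshly isolated libraries, Myl3, the ventricular essential light chain, had 0, 32 and 117, and Mybpc3, cardiac myosin binding protein C, had 7, 8 and 87. A list of 19 cardiac muscle markers was written after these values were seen and holds Myl2, Myl3 and Mybpc3 too. Of the 19, 11 were above both other freshly isolated libraries in library 3, 4 in library 1 and 2 in library 2. Over all genes tested the shares were 26.9%, 39.7% and 30.9%. Only 10 of the 19 passed the filter for testing, so the counts and shares have unlike bases. Gata4 (31, 6 and 3), Hand2 (9, 2 and 2) and Sln (41, 4 and 2) were highest in library 1. The cardiac troponin gene Tnni3 had 46, 53 and 130 counts, the atrial light chain gene Myl7 had 0, 1 and 1, and Nppa, the atrial natriuretic peptide, had 0, 14 and 4. The list summed to 5147, 5535 and 5941 in the freshly isolated libraries, most of it Ankrd1 (4593, 4974 and 4424), a stress-responsive gene of the sarcomere that is also active in cultured muscle cells. The list summed to 15497 to 22256 in proliferating cells, with Myl7, Nppb and Sln at 0, and to 177924 to 201988 in myotubes, with Myl7, Nkx2-5, Tbx20 and Tbx5 at 0. Most of the myotube sum was Actc1 (124677, 122868 and 133545) and Tnnt2 (56664, 39482 and 48778). Tnni3, Ryr2, Mybpc3, Nppa and Gata4 had at most 10 counts there. Of the 10 genes tested, 7 rose and none fell in myotubes against proliferating cells (28.6% and 25.5% of all genes). The part of heart-type cells in the Myh6 values was not tested.

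Myh7b was the most abundant sarcomeric gene per kb in freshly isolated libraries 1 and 2 and took 30.4%, 45.2% and 21.8% of the sarcomeric sum there. It had 113, 163 and 149 counts in freshly isolated, 25, 37 and 51 in proliferating and 377, 315 and 320 in myotube libraries, with no overlap between stages. It fell in proliferating against freshly isolated cells (log2 change -1.92 ± 0.27, adjusted p = 9.14e-05) and rose in myotubes against proliferating cells (3.18 ± 0.27, adjusted p = 6.99e-06) and against freshly isolated cells (1.26 ± 0.27, adjusted p = 0.00152). It was the single sarcomeric gene that changed by less than 10-fold in each of the 3 comparisons that called it, and its fall in proliferating cells held in every alternative fit. The exons of Myh7b overlap those of Trpc4ap on the other strand, which had 1671 to 2251 counts in all libraries, and no source used here gives the strand setting of the counts.

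Myh6, Myh7 and Myh7b each carry a microRNA in an intron, and the mature sequences (RefSeq, GRCm38.p6) are shown because these relatives share most of a seed (bases 2 to 8, in capitals).
miR-208a-3p: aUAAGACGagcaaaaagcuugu
miR-208b-3p: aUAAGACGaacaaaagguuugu
miR-499-5p: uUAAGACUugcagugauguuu
In mouse muscle these microRNAs are known to repress genes that hold back the slow programme. The 2 members of the miR-208 family have the seed UAAGACG and miR-499-5p has UAAGACU. The precursor genes Mir208a, Mir208b and Mir499 had between 0 and 2 counts in every library, also in myotubes with 8298 to 9476 counts of Myh7. Libraries of this kind recover small RNAs poorly, so mature levels cannot be read from them.

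The nonmuscle genes followed another course, highest in the dividing cells. Myh9, the IIA chain of stress fibres and the cleavage furrow, had 26385, 13871 and 16051 counts in freshly isolated, 33233, 38957 and 33925 in proliferating and 17256, 18071 and 14896 in myotube libraries. Each proliferating library was above all others. Myh9 rose by a log2 change of 0.97 ± 0.21 in proliferating against freshly isolated cells (adjusted p = 0.00171) and fell by 1.08 ± 0.21 in myotubes against proliferating cells (adjusted p = 0.00138). Myotubes and freshly isolated cells overlapped (16741 ± 1650 and 18769 ± 6690, SD, n = 3 each, adjusted p = 0.633), and freshly isolated library 1 was the highest of those 6. Without it the log2 change was 0.16 and not called (adjusted p = 0.211).

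Myh10, the IIB chain, moved the same way and less far. It had 3070, 1993 and 2353 counts in freshly isolated, 3377, 3726 and 3416 in proliferating and 2512, 2727 and 2159 in myotube libraries. Its log2 change was 0.53 ± 0.15 in proliferating against freshly isolated cells (adjusted p = 0.00922) and -0.51 ± 0.15 in myotubes against proliferating cells (adjusted p = 0.015), and the call in myotubes ended without proliferating library 2 (adjusted p = 0.0533) or without myotube library 3 (adjusted p = 0.066). Myotubes and freshly isolated cells were not called (0.01 ± 0.15, adjusted p = 0.942). Per 100 of Myh9 and per kb, Myh10 stood at 14.4, 17.8 and 18.1 in freshly isolated libraries, 12.6, 11.8 and 12.4 in proliferating ones and 17.9 to 18.7 in myotubes, lowest in the 3 proliferating libraries (exact permutation p = 0.1 against either other stage, the smallest possible). The family share of the nonmuscle genes dropped to 2.08% ± 0.356 in myotubes, against 60.7% ± 20.8 in proliferating cells, while their summed counts stayed at 17055 or more.

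Myh14, the IIC nonmuscle chain, had 6828, 2102 and 3092 counts in freshly isolated, 17, 31 and 29 in proliferating and 126, 74 and 116 in myotube libraries, a course unlike that of Myh9 and Myh10. It fell by a log2 change of 7.1 in proliferating against freshly isolated cells (adjusted p = 1.45e-07) and rose by 2.00 in myotubes against proliferating cells (adjusted p = 0.00202). With all class II genes in the sum, Myh9 and Myh10 made up 74.0% in freshly isolated cells, and 96.5% with Myh14 counted among the nonmuscle genes. Myh13, the chain of extraocular muscles, had 9, 0 and 0, then 5, 7 and 9, then 200, 166 and 154 counts. The smooth muscle gene Myh11 had between 3 and 16 counts in every library.

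Of 7 sarcomeric light chain and kinase genes tested, 6 rose and 1 fell in myotubes against proliferating cells (28.6% and 25.5% of all genes). The median log2 change was 6.02 over the list and 0.04 over all genes. Myl1, the fast essential chain, had 135, 1293 and 1033 counts in proliferating and 131293, 93051 and 148794 in myotube libraries, and Myl4, the embryonic and atrial essential chain, had 252, 1754 and 1156, then 127211, 99773 and 157350. Mylpf, the fast regulatory chain, had 698, 3469 and 2725, then 140872, 89869 and 141671. The gene that fell was Mylk2, the skeletal muscle light chain kinase (log2 change -0.59, adjusted p = 0.0268). In proliferating against freshly isolated cells 4 rose and 1 fell (37.6% and 35.7% of all genes), and 2 were not called.

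A list written for nonmuscle and smooth muscle light chains and regulators had 12 genes, some of which, Myl6b and Mylk3 included, also act in striated muscle. Of the 12, 11 rose, none fell and 1 was not called in myotubes against proliferating cells. In that comparison 28.6% of all genes rose and 25.5% fell, and Myh9 and Myh10 fell. The rises differed in size, at 22.8-fold for Myl6b and 1.79-, 1.62- and 2.20-fold for Myl6, Myl9 and Myl12a. Myl6b had 174, 456 and 333 counts in proliferating and 7011, 5930 and 7635 in myotube libraries, and the light chain kinase Mylk had 24, 50 and 50, then 282, 332 and 284. In proliferating against freshly isolated cells 3 of the 12 rose and 6 fell (37.6% and 35.7% of all genes). Of 18 partners of nonmuscle myosin in division and motility, 11 fell and 4 rose in myotubes against proliferating cells, and 16 rose and 1 fell in proliferating against freshly isolated cells. Anln, which links the cleavage ring to the membrane, had 65, 23 and 27 counts in freshly isolated, 5996, 6638 and 5906 in proliferating and 1739, 2294 and 1454 in myotube libraries. Cit, the citron kinase of the cleavage ring, had 355, 302 and 383, then 2956, 2910 and 2778, then 497, 608 and 457. The 6 proliferation markers summed to 133 to 745, 45175 to 49844 and 14189 to 23642 in the 3 stages, so markers of division were still present in the myotube libraries.

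Of 17 folding, assembly and turnover genes tested, 13 rose and 3 fell in myotubes against proliferating cells (28.6% and 25.5% of all genes). In proliferating against freshly isolated cells 9 rose and 5 fell (37.6% and 35.7% of all genes). Smyd1, a methyltransferase that helps myosin assembly, had 37, 7 and 19 counts in freshly isolated, 1429, 2755 and 2633 in proliferating and 9718, 9486 and 9885 in myotube libraries, so that it was well above the freshly isolated level in proliferating library 1 too. Unc45b, the myosin chaperone, had 444, 139 and 176, then 70, 464 and 377, then 4778, 4363 and 5068, and was not called before the myotube stage (log2 change 0.06, adjusted p = 0.938). It falls outside the rule for named genes and was chosen after its values were seen. Trim63, the ligase MuRF1 that marks myosin for degradation, had 6, 76 and 64 counts in proliferating and 2453, 1900 and 2509 in myotube libraries.

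Regulators of isoform choice were mixed. Of 26 tested, 10 rose and 8 fell in myotubes against proliferating cells (28.6% and 25.5% of all genes), with a median log2 change of 0.21. In proliferating against freshly isolated cells 13 rose and 10 fell (37.6% and 35.7% of all genes). Mef2c, a factor that binds MEF2 sites, had 20, 9 and 21 counts in freshly isolated, 33, 297 and 196 in proliferating and 29906, 26333 and 32818 in myotube libraries. The noncoding gene 2310065F04Rik, which lies between Myh3 and Myh2, was listed at 0 in freshly isolated cells and had 2, 6 and 1 counts in proliferating and 117, 105 and 108 in myotube libraries. Sox6, a repressor of slow genes in mouse muscle, rose in myotubes, with 546, 601 and 578 counts, against 71, 150 and 155 in proliferating cells (adjusted p = 6.67e-05). Prox1, an activator of slow genes, had 7645, 6844 and 6900 counts in freshly isolated, 221, 570 and 522 in proliferating and 807, 988 and 828 in myotube libraries. Nfatc2, a calcineurin-dependent factor, had 1928, 3480 and 3191, then 11, 30 and 28, then 84, 68 and 100. The thyroid hormone receptor gene Thra, whose product controls Myh6 and Myh7 in the mouse heart, had 3551, 2874 and 3506, then 333, 374 and 334, then 816, 852 and 948.

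Markers of other cells also differed between stages. Of all genes tested, 28.6% rose and 25.5% fell in myotubes against proliferating cells, and 37.6% and 35.7% in proliferating against freshly isolated cells. Of 12 adult myofibre genes tested, 12 rose in myotubes against proliferating cells, and 2 rose and 3 fell in proliferating against freshly isolated cells. The list summed to 4683 to 5436 in freshly isolated cells, where sarcomeric myosin summed to 357 to 694. It summed to 4668 to 12153 in proliferating cells and to 134987 to 188514 in myotubes, with no marker at 0 in all libraries of a stage. Most of the freshly isolated sum was Actn3 (2708, 2439 and 2178) and Pygm (1253, 1302 and 1429), while Myot had 0, 14 and 3 counts and Pvalb 11, 23 and 20. Of 7 slow fibre genes, 6 rose in myotubes against proliferating cells, and 4 rose and 1 fell in proliferating against freshly isolated cells, with a median log2 change of 3.41 there. The list summed to 16178 to 17689, 17504 to 23703 and 188006 to 257312 in the 3 stages, and most of the first 2 sums was the calcium pump gene Atp2a2 (10880 to 12140 and 11905 to 13781), named after its values were seen. The slow troponin gene Tnnt1 had 294, 225 and 167 counts in freshly isolated, 1411, 2882 and 3306 in proliferating and 28526, 19403 and 25193 in myotube libraries. Of 8 smooth muscle or pericyte genes, 6 rose and 1 fell in myotubes against proliferating cells, and 2 rose and 4 fell in proliferating against freshly isolated cells, with sums of 32093 to 41775, 26632 to 45277 and 127425 to 148688. Much of that sum is Des, the desmin gene that muscle cells also express (36699, 28357 and 27708 in freshly isolated, 17512, 24065 and 22403 in proliferating and 74698, 61850 and 82760 in myotube libraries), and in myotubes also Acta2, smooth muscle actin (61639, 60374 and 60888). Of the pericyte genes, Rgs5 and Kcnj8 had at most 100 counts in any library, and Pdgfrb had 67 to 376. Abcc9 had 442, 640 and 603 counts in freshly isolated, 11, 60 and 48 in proliferating and 1420, 1673 and 1751 in myotube libraries. Cspg4 had 414, 410 and 371, then 1683, 1625 and 2123, then 162, 148 and 177.

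Of 7 fibroblast genes, 1 rose and 6 fell in proliferating against freshly isolated cells (37.6% and 35.7% of all genes). The list summed to 12091 to 22042 in freshly isolated cells and to 3167 to 3201 in proliferating cells (Cxcl14, Dpt and Lum at 0). In myotubes it summed to 3909 to 5098 (Cxcl14 at 0). Col3a1 held most of each sum (18751, 7414 and 10271 in freshly isolated libraries), and Dpt had 2449, 3554 and 3249 there. Of 5 endothelial genes none rose and 3 fell in proliferating against freshly isolated cells. The list summed to 1935 to 2435, 117 to 139 and 118 to 155 in the 3 stages (Emcn at 0 in both cultured stages). Most of the first sum was Tek (1815, 2190 and 2045), while Pecam1 had 59, 155 and 128 and Cdh5 17, 36 and 50. Of 2 leukocyte genes tested 1 fell in that comparison, and the list summed to 551 to 646 (Adgre1 and Tyrobp at 0), 55 to 72 (Adgre1, Cd52 and Lyz2 at 0) and 237 to 256 (Cd52 and Tyrobp at 0). Cd68, the gene that fell, held most of the first sum (549, 629 and 621). The other leukocyte gene tested, the integrin gene Itgam, had 2, 6 and 2 counts in freshly isolated libraries. It rose in myotubes, with 223, 213 and 229 counts, against 2, 6 and 3 in proliferating cells (log2 change 5.67, adjusted p = 5.88e-06). Of 9 satellite cell and myoblast genes, 3 rose and 4 fell in myotubes against proliferating cells (28.6% and 25.5% of all genes). In myotubes against freshly isolated cells 3 rose and 4 fell (40.2% and 37.3% of all genes). In proliferating against freshly isolated cells 3 rose and 5 fell. The list summed to 73815 to 87820, 55927 to 75042 and 117578 to 144405, with Des, counted here too, and Myog holding most of the myotube sum. Pax7, the transcription factor of satellite cells, had 15700, 11694 and 12892 counts in freshly isolated, 3330, 2668 and 2556 in proliferating and 1254, 1645 and 1192 in myotube libraries, and the adhesion gene Vcam1 had 13053, 14393 and 16393, then 1230, 1449 and 1194, then 806, 812 and 745. The part of these cells in the myosin values, Myh9, Myh10 and Myh14 included, was not tested.

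Genes with the most similar course over the 9 libraries were ranked by Pearson correlation of log2(value + 1) among 10019 genes, a description in which the 3 stages and the library scaling are shared by all genes. For Myh3 they were Lmo7, Gpc1, Tpm2, Gatm and Sgcb (r between 0.9968 and 0.9979). Tpm2 is beta-tropomyosin, Sgcb a sarcoglycan of the muscle membrane and Gatm an enzyme of creatine synthesis. Tpm2 had 717, 306 and 430 counts in freshly isolated, 6824, 12280 and 11313 in proliferating and 88893, 70957 and 94334 in myotube libraries, an early rise as in Myh3. For Myh8 they were Actn2, Mef2c, Ostm1, Dnal1 and Ablim3 (0.9958 to 0.998), led by the Z-disc gene Actn2 with 118, 46 and 69, then 153, 568 and 467, then 19163, 18182 and 21358. For Myh7 they were Prob1, Sgca, Anxa4, Kdm4c and Tmod1 (0.9936 to 0.9975). For Myh9 they were Ccar2, Sart3, Hnrnpul1, Ano8 and Setdb1 (0.9829 to 0.9883), and for Myh10 Myh9 itself (0.976), Pofut1, Galc, Cul7 and Ano8. Ccar2 had 1081, 661 and 775, then 1612, 1612 and 1495, then 795, 841 and 749, with freshly isolated library 1 above the others of its stage as in Myh9.

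How far reads can be assigned differs between the genes. Of all 50-base stretches of the longest transcript, 32.1% in Myh1, 28.9% in Myh2, 28.2% in Myh7, 22.6% in Myh6, 21.4% in Myh8 and 18.9% in Myh4 also occur in another gene, against 4.81% in Myh3, 1.12% in Myh9, 0.943% in Myh10 and none in Myh7b. Myh1 shares most with Myh2, and Myh6 with Myh7. No source used here says how the counting treated such reads, so the lower genes of these pairs are uncertain, among them Myh2 in myotubes (205 to 276 beside 81073 to 103059 of Myh1) and Myh6 in myotubes (33 to 51 beside 8298 to 9476 of Myh7). Myh3 shares most with Myh13 (169 such stretches), so Myh13 in myotubes (154 to 200 beside 296158 to 335321 of Myh3) is uncertain too. Freshly isolated library 3 had 375 counts of Myh6 beside 28 of Myh7. Antisense genes overlap Myh1 (Myhas, 241, 233 and 297 counts in myotubes) and Myh2 (9430073C21Rik, 178, 173 and 218), and without the strand setting their reads and those of the genes they overlap cannot be told apart. For Myh1 that is small beside its count, and for Myh2 it is close to the count itself.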

How the data were processed

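RiboGone removed ribosomal RNA from 100 ng of total RNA, and SMARTer Stranded libraries were made, per the labels' protocols. Reads were aligned with STAR 2.4.0a and counted with featureCounts 1.4.5-p1 of Subread on mm10 (GRCm38), per the submitters' processing notes, while no source used here gives the strand setting or scaling method. The deposited values, of unit score, are read counts scaled by the authors and then rounded, so no count model was run. Which columns are freshly isolated cells follows by elimination, since PSC and DSC name the other stages. The submitters state that replicates are different animals, so p-values reflect the spread between animals.

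The 17291 genes that reached 10 in 3 or more libraries entered 1 limma 3.58.1 model with a mean-variance trend (R 4.3.3) on log2(value + 1) over all 9 libraries, two-sided, tested on simulated data, with a Benjamini-Hochberg threshold of 0.05. Shares and ratios used counts per kb of annotated exons (GENCODE vM21), with two-sided exact permutation tests (scipy 1.17.1, Python 3.11.15). Tables were handled with pandas 2.3.3 and numpy 2.4.6, and plots drawn with matplotlib 3.10.9. All 10 genes are named. Of each list, up to 4 genes per comparison with the largest called change could be named, and for 5 genes the 5 most similar in course, among genes with a mean of at least 100. Genes named outside this rule (Unc45b, Mylk2, Myh11, Atp2a2, Actn3, Pdgfrb, Col3a1, the cardiac markers) were chosen after their values were seen. One further item is not reported here. The genes, lists and tests were chosen with earlier results of these data known.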

Additional observations from a re-analysis of the deposited data

How the results depend on the processing

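The alternatives were 3 other scalings, pseudocounts of 0.5 and 10, no filter and a filter at 100, no trend, sample weights, fits of the 2 stages compared, a replicate block, other lengths for the shares and leaving out libraries. Of 625 alternative log2 changes of the 10 genes, 571 kept direction and call, 36 lost the call, 2 gained it and 16, none of them called, changed sign. Of the 30 changes, 21 kept both in every alternative. The number of genes called lower in proliferating against freshly isolated cells, 4, was 2 with TMM scaling, 2 with library totals, 2 with no filter, 1 with no trend, 1 with the 2 stages alone and 1 to 4 when 1 library was left out, with adjusted p of 0.0279 to 0.0425 for Myh2, Myh4 and Myh6 in the fit reported. The number called lower in myotubes against proliferating cells, 2, was 1 to 2 when 1 library was left out. Among uncalled changes that changed sign, Myh6 in myotubes against freshly isolated cells was -0.03 with a pseudocount of 10 and -1.61 with sample weights. It was -1.3 without freshly isolated library 1 and proliferating library 1 together, and -1.3 to 2.97 when 1 library was left out. Myh9 in that comparison was 0.02 with library totals, 0.09 with sample weights and 0.16 without those 2 libraries. When 1 library was left out Myh9 was -0.3 to 0.16. Myh10 there was -0.13 to 0.18, and Myh7 in proliferating against freshly isolated cells -0.5 to 0.97. The cause was not tested. The nonmuscle share of the family in myotubes was 3.93% with no division by length and 3.21% with the longest transcript. In proliferating cells it was 74.8% and 71.0% in the same order, against 60.7%. In freshly isolated cells it was 74.0% with all class II genes in the sum. The share of Myh3 and Myh8 in the sarcomeric sum of proliferating cells was 94.0% with no division by length and 94.1% with the longest transcript, against 94.4%. Of 144 changes of named list genes, 49 moved by over 1.5-fold without some library, 23 of them without proliferating library 1. Libraries with the same number did not deviate together (correlations of -0.034 to 0.027), which cannot show whether they came from the same animals. With a replicate block the genes called were 8 higher and 2 lower, 5 and 4, and 7 and 0, as without it. Few reads limit the precision of Myh2, Myh4, Myh6 and Myh8 before the myotube stage, where some libraries have counts under 10. The sum with Myh14 as nonmuscle was chosen after seeing the data.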
